A study of Mus musculus with 4 samples.

Results

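The dystrophin and sarcoglycan complex was examined through the m6A peaks of 7 genes, Dmd, Utrn, Dag1, Sgca, Sgcb, Sgcd and Dtna, taken by symbol from the peak lists of knockout and control mouse hearts. The rows used here held 14 peaks in 4 of these genes, of 41945 peaks in 12182 genes in all. Dag1, Sgcb, Utrn and Sgca carry every value given for the complex itself, and Dmd, Sgcd and Dtna have no value here. MeRIP-seq maps N6-methyladenosine (m6A) by sequencing RNA fragments that an antibody against m6A captures, together with the uncaptured input. Wtap-CKO hearts (knockout, RNA pooled from 8 mice) were set against Wtapflox/flox hearts (control, 7 mice), both at 4 days of age, with 1 immunoprecipitation (IP) and 1 input library each. The controls carry the floxed Wtap alleles as well, and the Cre driver and the cells in which it acts are not given in the sources used here. With 1 pooled pair of libraries per genotype there is no replicate check, and no p-value between genotypes was computed. The genes were chosen by symbol, with the peak calls of both lists already known, so the numbers, folds and p-values of their peaks are given as descriptions.

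The complex links the actin cytoskeleton of a muscle fibre to the basement membrane across the plasma membrane. Dystrophin (Dmd) and its homologue utrophin (Utrn) bind actin inside the cell, dystroglycan (Dag1) spans the membrane and binds laminin outside it, and the sarcoglycans (Sgca, Sgcb, Sgcd) form a membrane subcomplex beside dystroglycan. Dystrobrevin (Dtna) joins the cytoplasmic side, where syntrophins attach. In humans, loss of dystrophin or of a sarcoglycan causes muscular dystrophy, often with cardiomyopathy. In most mRNAs m6A is placed by a methyltransferase complex of which WTAP is a regulatory subunit, and it is densest near stop codons and in long exons.

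The knockout list held 6 peaks of the complex in 2 genes, Dag1 and Sgcb. The control list held 8 peaks in 4 genes, Dag1, Sgcb, Utrn and Sgca. A peak is said to have a counterpart when at least 1 of its exonic bases is also covered, on the same strand, by the other list. None of the 6 knockout peaks lacked a control counterpart, while 3 of the 8 control peaks (37.5%, exact 95% interval 8.52 to 75.5%) had no knockout counterpart, 1 each in Dag1, Utrn and Sgca. Over all genes, 24.5% of knockout peaks and 23.9% of control peaks had no counterpart, and the interval of the complex holds the control value. The intervals cover counting error only and treat the peaks of 1 gene as independent.

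**Figure D1:**
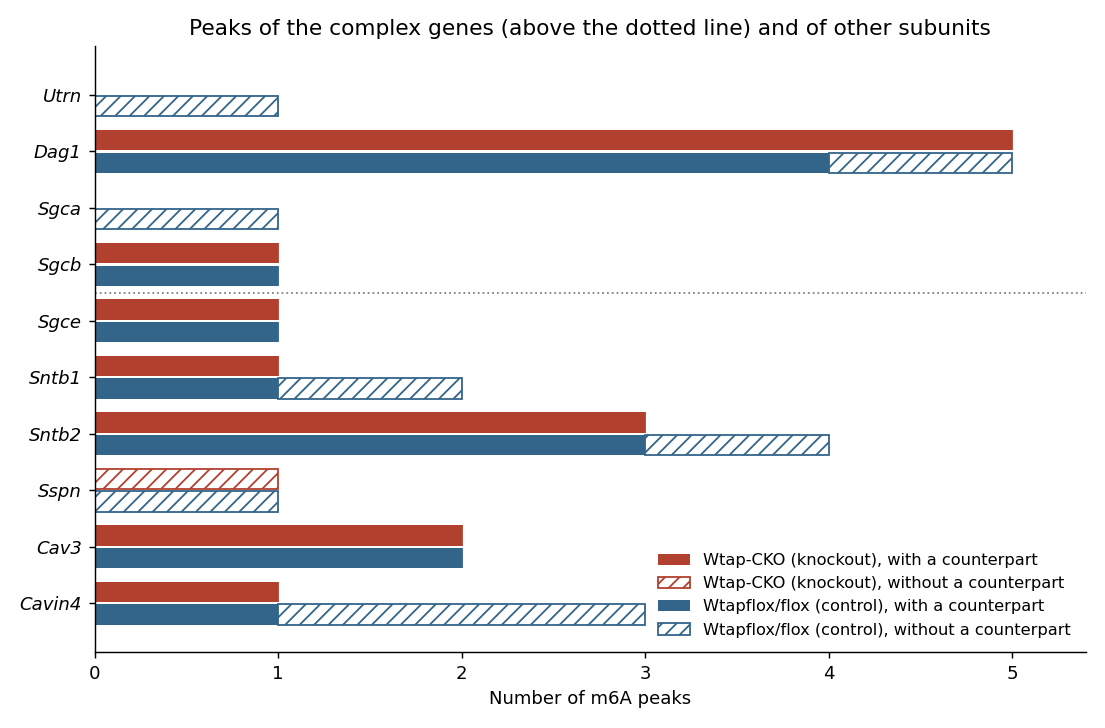
Number of m6A peaks per gene (horizontal axis) in the Wtap-CKO list (red, upper bar) and the Wtapflox/flox list (blue, lower bar), with filled parts for peaks that have a counterpart in the other list and hatched parts for those that do not. Above the dotted line, Dag1 had 5 peaks in each list, Sgcb 1 in each, and Utrn and Sgca 1 each in the control list only. Below it stand the other subunits that are described by name.

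Dag1, which encodes the laminin receptor at the centre of the complex, had the most peaks among the 7 genes, 5 in each list. Only 4.45% of genes in the knockout list and 4.44% in the control list had 5 or more. Dag1 lies on the minus strand of chromosome 9 (build GRCm39), so lower coordinates are nearer its 3′ end. All 5 knockout peaks and 4 of the 5 control peaks had a counterpart. The 4 knockout peaks nearest the 3′ end lay within 2370 bases, and the 3 control peaks nearest the 3′ end within 2759 bases.

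The 3′-most part of Dag1 was a pair of narrow peaks in the knockout list and 1 broad peak in the control list. The knockout peaks ran over 661 bases (108084231 to 108084891, fold 3.27, log10 p -161) and over 361 bases (108085071 to 108085431, fold 3.36, log10 p -124), with a gap of 179 bases between them. The control peak covered 1530 bases in a single block (108083992 to 108085521, fold 11.4, log10 p -766). The fold of a peak is its IP over input ratio as called by the authors, and the log10 p comes from the same caller, so a more negative number marks a stronger call. Both knockout peaks lay wholly within the control peak and filled 43.2% and 23.6% of it. Over all genes, 9.48% of control peaks with a counterpart overlapped at least 2 knockout peaks, and 8.24% of knockout peaks with a counterpart overlapped at least 2 control peaks. Within its own list, the control peak ranked high, with a q at or under its own in 0.978% of control peaks and a fold at or under its own in 70.8%. The knockout peaks had a small fold for their list, at or under which 18.3% and 19.5% of knockout peaks lay, but small q values, at or under which 2.72% and 3.86% lay.

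The next Dag1 peaks toward the 5′ end were also narrower in the knockout list and nested in the control peak. At the first of these, the knockout peak had 120 bases (108085761 to 108085880, fold 1.33, log10 p -7.3) and the control peak 330 bases (108085641 to 108085970, fold 2.87, log10 p -83.1). Only 0.175% of knockout peaks had a fold at or under 1.33, so this was among the weakest enrichments of the list. At the other, the knockout peak had 211 bases (108086390 to 108086600, fold 1.77, log10 p -17.2) and the control peak 421 bases (108086330 to 108086750, fold 4.04, log10 p -128). All 4 knockout peaks of this 3′ stretch thus lay entirely inside control peaks. Over all genes, 48.5% of knockout peaks with a counterpart did so.

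A further control peak of Dag1 had no knockout counterpart. It had 241 bases at 108095311 to 108095551, 8560 bases beyond the 3′ stretch, with a fold of 1.73 and a log10 q of -8.43. It lay between the outermost knockout peaks of the gene. Among 621 control peaks with a log10 q within 0.5 of it, 22.1% had no knockout counterpart.

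At the 5′-most position of Dag1 the order of the lists was the other way round. The knockout peak had 451 exonic bases in 2 blocks, the second of them 448 bases wide (108130354 to 108141127, fold 6.28, log10 p -32.4). The control peak had 151 bases in 1 block (108140827 to 108140977, fold 2.94, log10 p -5.89) and lay wholly within the wide knockout block, of whose peak it filled 33.5%. Taken over the gene, Dag1 peaks covered 1804 exonic bases in the knockout list and 2673 in the control list, with 1504 bases in both. Those shared bases were 83.4% of the knockout bases and 56.3% of the control bases. The depth of the libraries is unknown and each list was called on its own, so no pair of values shows a change.

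**Figure D2:**
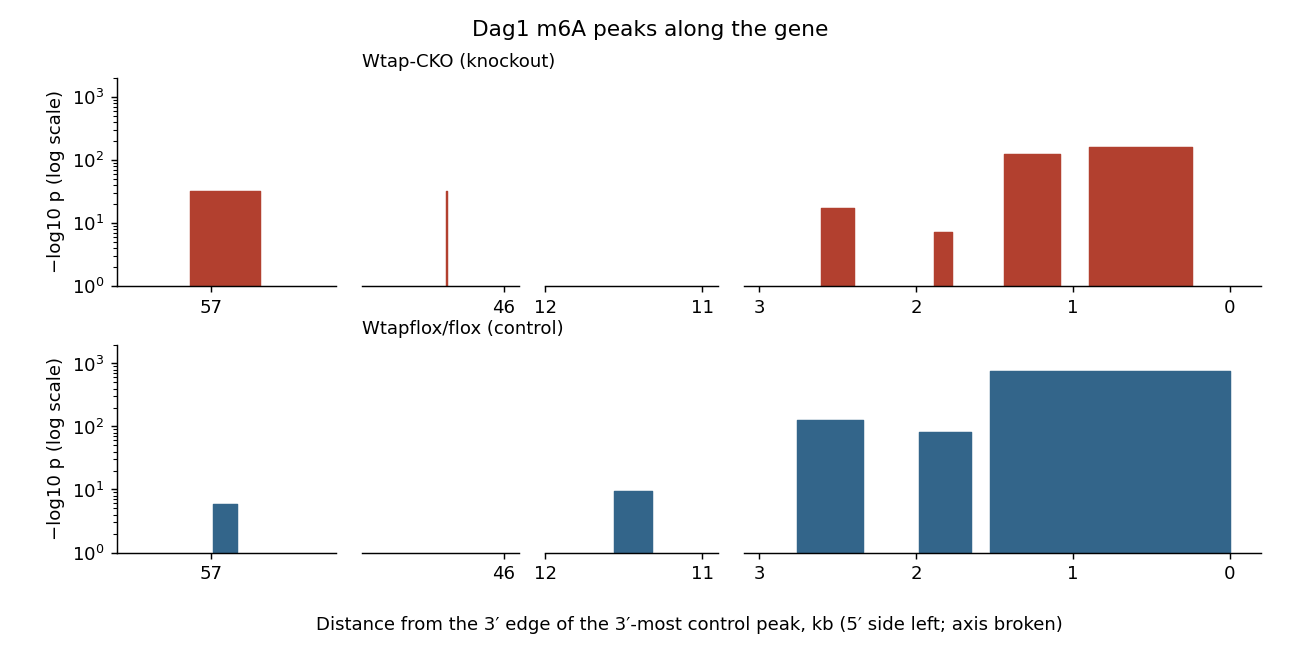
Peaks of Dag1 in the Wtap-CKO list (red, above) and the Wtapflox/flox list (blue, below), with the 5′ side on the left. The horizontal axis is the distance in kb from the 3′ edge of the 3′-most control peak, broken where no peak lies, and the vertical axis is -log10 p on a log scale. At the 3′ side the knockout peaks are narrower and lower than the control peaks (log10 p -161 and -124 in the knockout list, -766 in the control list, for the 3′-most peaks), and at the 5′ side the knockout peak is the wider and taller one (-32.4 in the knockout list, -5.89 in the control list).

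To set this against other genes, the 5′-most and the 3′-most overlapping pair of peaks of each gene were compared, a step chosen after the Dag1 values were seen. The comparison took 4040 genes with at least 2 such pairs whose end pairs held different control peaks. Genes whose end pairs shared a control peak were left out, but those whose end pairs shared a knockout peak were kept. The selection thus treated the lists unequally, and its effect on the shares was not tested. In 65.1% of these genes the size of the log10 p, knockout relative to control, was greater at the 5′-most than at the 3′-most pair. The stricter form seen in Dag1, a larger size in the knockout list at the 5′-most pair and a larger size in the control list at the 3′-most pair, was present in 33.3%. The arrangement of Dag1 was therefore also that of many other genes among those compared. Positions here are the order of peaks along the annotated strand, and coding and untranslated parts of the transcripts were not separated.

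Sgcb, which encodes beta-sarcoglycan, a core subunit of the sarcoglycan subcomplex, had 1 peak in each list with the same 2 blocks. It spanned 73801612 to 73805133 on the minus strand of chromosome 5, with blocks of 213 and 116 bases and 329 exonic bases in all. The fold was 17.9 in the knockout list and 9.52 in the control list. The log10 p was -93.1 in the knockout list and -53.8 in the control list. Of the peaks of their own list, 86.0% had a fold at or under that of the knockout peak and 61.5% at or under that of the control peak. Both values thus refer to the same bases. Of 851 peaks with the same blocks in both lists and a q at or under 1e-10 in each, the fold was higher in the knockout list in 525 (61.7%), so Sgcb stood with the larger number. Of all 1330 peaks with the same blocks it was higher there in 58.9%.

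Utrn, which encodes utrophin, carried a peak in the control list only. It lay on the minus strand of chromosome 10 at 12281701 to 12289713, with 331 exonic bases in 3 blocks of 138, 159 and 34 bases, a fold of 2.88 and a log10 q of -6.12. Sgca, which encodes alpha-sarcoglycan, a subunit made mainly in striated muscle, also carried 1 peak in the control list only. It covered 240 bases on the minus strand of chromosome 11 (94853647 to 94853886), with a fold of 2.11 and a log10 q of -4.69. Both were weak calls for their list, in which 60.5% of peaks had a q at or under that of the Utrn peak and 68.4% at or under that of the Sgca peak. Over all genes with a peak, 11.9% had peaks in the knockout list only and 10.5% in the control list only. Weak peaks often lacked a counterpart: 24.7% of 941 control peaks with a log10 q within 0.5 of the Utrn peak did, and 33.4% of 1475 within 0.5 of the Sgca peak. The lists hold only peaks past the authors' q threshold of 0.05, so the IP over input value of Utrn and Sgca in the knockout hearts is unknown and no upper limit can be given.

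**Figure D3:**
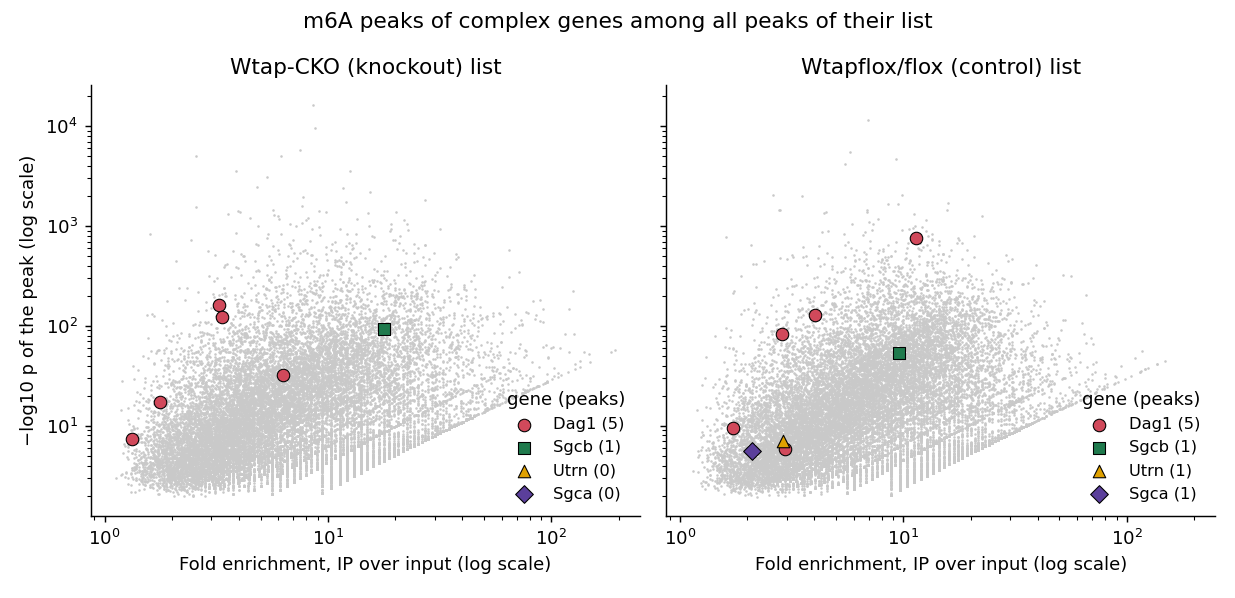
Fold enrichment of IP over input (horizontal axis, log scale) and -log10 p (vertical axis, log scale) of all peaks with a finite p in the Wtap-CKO list (left) and the Wtapflox/flox list (right), in grey, with the peaks of Dag1, Sgcb, Utrn and Sgca marked. Utrn and Sgca appear in the control panel only, low in the cloud, and the strongest Dag1 peak stands at a fold of 11.4 there.

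When only strong peaks were counted, with a q at or under 1e-10, every peak of the complex had a counterpart at the main overlap rule. None of 5 strong knockout peaks and none of 4 strong control peaks lacked one. Over all genes, 4.04% of strong knockout peaks and 8.72% of strong control peaks had none. No peak of the 4 genes overlapped a peak of another gene on the opposite strand in its own list.

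The other subunits of the complex, 13 genes for further sarcoglycans, syntrophins, beta-dystrobrevin, sarcospan, nNOS and caveolar partners, were counted beside the 4 genes above. Of the 13, 5 had no peak in either list. All 8 genes with a peak had peaks in both lists, beside 77.6% of all genes with a peak. In the knockout list 2 of 11 peaks (18.2%, 2.28 to 51.8%) had no counterpart, and in the control list 9 of 18 did (50%, 26.0 to 74.0%). Over all genes it was 24.5% of knockout and 23.9% of control peaks. The knockout interval holds its all-gene value, and the control interval leaves it out. Among strong peaks it was 1 of 8 in the knockout list (12.5%, 0.316 to 52.7%) and 4 of 10 in the control list (40.0%, 12.2 to 73.8%). Over all genes it was 4.04% and 8.72%, and again only the control interval leaves out its value. These intervals too treat the peaks of 1 gene as independent, and the list was chosen with earlier results known.

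Sspn, which encodes sarcospan, a tetraspan-like protein of the sarcoglycan subcomplex, had 1 peak in each list, without overlap. Its knockout peak was at 145879853 to 145880033 on chromosome 6 (fold 7.74, log10 p -11.3). Its control peak was at 145907270 to 145908018 (fold 7.36, log10 p -175), on the 3′ side.

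Sntb1, which encodes beta-1-syntrophin, an adaptor that binds dystrophin and dystrobrevin, shared its 5′ peak between the lists (log10 p -21.1 in the knockout list and -17.9 in the control list) and had a weak 3′ control-only peak (-6.29). Cavin4, which encodes a muscle protein of caveolae and was named after its values were seen, shared a peak (log10 p -82.7 in the knockout list and -71.2 in the control list) and had a control-only peak on its 3′ side (-42.9). Cav3, which encodes the muscle caveolin that binds dystroglycan, had 2 peaks in each list, all with a counterpart. Its 5′ pair had a log10 p of -112 in the knockout list and -39.6 in the control list, and its 3′ pair had -38.2 in the knockout list and -217 in the control list. Sntb2, which encodes beta-2-syntrophin, had larger sizes of log10 p in the knockout list at both ends, -8.13 against -4.49 at the 5′-most pair and -4.45 against -2.96 at the 3′-most pair.

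**Figure D4:**
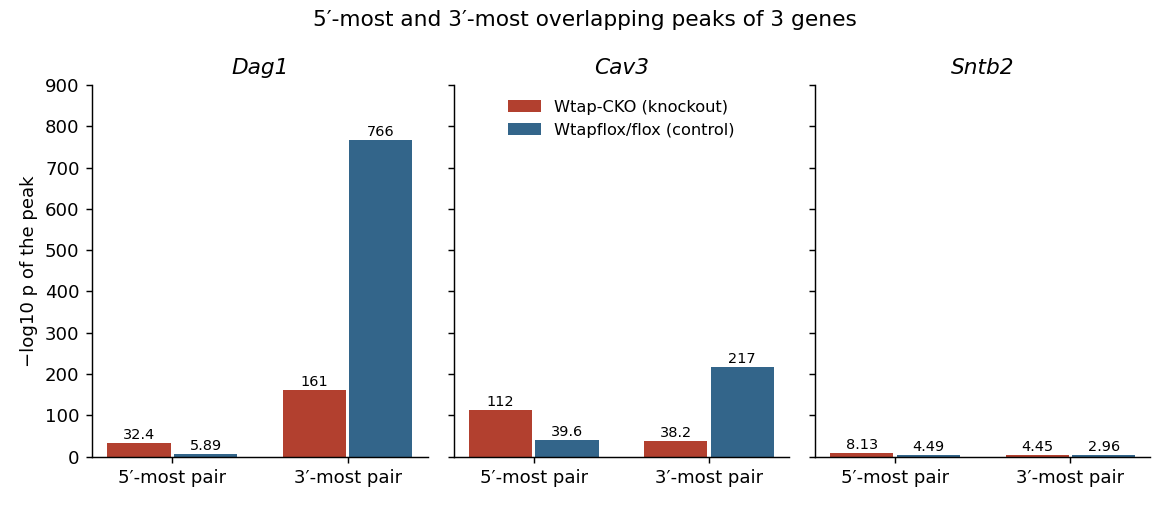
The -log10 p (vertical axis) of the 5′-most and the 3′-most overlapping pair of peaks of Dag1, Cav3 and Sntb2, in the Wtap-CKO list (red, left bar) and the Wtapflox/flox list (blue, right bar), each bar being 1 peak. In Dag1 and Cav3 the knockout bar is the taller one at the 5′-most pair and the control bar at the 3′-most pair, while in Sntb2 the knockout bar is the taller one at both.

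Counted over the other subunits, both knockout-only peaks lay on the 5′ side of every control peak of their gene, and 7 of the 9 control-only peaks lay on the 3′ side of every knockout peak of their gene. The remaining control-only peaks were 1 on the 5′ side, in Cavin4, and 1 between knockout peaks, in Sntb2. Over all genes with peaks in both lists, 53.7% of 3533 knockout-only peaks lay on the 5′ side and 25.8% on the 3′ side, whereas 46.0% of 3386 control-only peaks lay on the 3′ side and 26.8% on the 5′ side. Among strong knockout-only peaks 58.1% of 222 lay on the 5′ side and 29.3% on the 3′ side, and among strong control-only peaks 67.1% of 629 lay on the 3′ side and 12.1% on the 5′ side. The counts of the subunits ran the same way as those of the whole lists. Sgce, which encodes epsilon-sarcoglycan, a subunit found beyond striated muscle too, had 1 peak with the same span in both lists (4740195 to 4747207 on chromosome 6). Its fold was 48.8 in the knockout list and 4.81 in the control list, and its log10 p was -22.3 in the knockout list and -6.29 in the control list.

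The enzymes that build the laminin-binding sugar chain on dystroglycan had single-list peaks at shares whose intervals held those of all genes. Peaks in both lists were found for 14 of 18 genes, and 1 further gene had a control peak alone. In the knockout list 3 of 26 peaks had no counterpart (11.5%, 2.45 to 30.2%), and in the control list 4 of 25 did (16.0%, 4.54 to 36.1%), beside 24.5% of knockout and 23.9% of control peaks over all genes. No strong peak lacked one, of 16 in the knockout list and 13 in the control list, beside 4.04% and 8.72% over all genes. Dolk, which encodes dolichol kinase, had 3 peaks in each list, all with a counterpart. The control-only peaks of Pomgnt2 (log10 p -6.08) and Rxylt1 (-4.49), which encode enzymes of the same route, were weak, as were both knockout-only peaks of Pomgnt1 (-8.09 and -3.13).

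The extracellular ligands of dystroglycan and their matrix partners were a list of 12 genes. In the knockout list 11 of 25 peaks (44.0%, 24.4 to 65.1%) had no counterpart, and in the control list 2 of 18 did (11.1%, 1.38 to 34.7%), and these intervals hold the 24.5% of knockout and 23.9% of control peaks over all genes. Among strong peaks it was 4 of 13 in the knockout list (30.8%, 9.09 to 61.4%) and 0 of 9 in the control list (upper bound 33.6%). Over all genes it was 4.04% and 8.72%. The strong knockout interval leaves out its all-gene value, and the control interval holds its own. Bgn, which encodes biglycan, had 2 peaks in the knockout list only, the stronger on chromosome X at 72538463 to 72538642 with a fold of 1.36 and a log10 p of -16.0. Hspg2, which encodes perlecan, had 4 knockout and 2 control peaks, and its strongest knockout-only peak had a fold of 1.41 and a log10 p of -14.5. These were small folds for the list, in which the median was 7.03. Not all strong knockout-only peaks of the ligands were so low. That of Lama5, named here after its values were seen, had a fold of 8.21 and a log10 p of -12.3. Slit2 had 4 peaks in each list, and its control-only peak (log10 p -2.71) was weak, as was that of Agrn, which encodes agrin (-3.71).

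The 17 genes for membrane repair and the costamere, the rib-like attachment of the sarcomere to the membrane, were counted in the same way. In the knockout list 5 of 37 peaks (13.5%, 4.54 to 28.8%) had no counterpart, and in the control list 14 of 46 did (30.4%, 17.7 to 45.8%), with 24.5% and 23.9% over all genes inside these intervals. Among strong peaks it was 0 of 19 in the knockout list and 5 of 27 in the control list (18.5%, 6.3 to 38.1%), whose intervals also hold the 4.04% and 8.72% of all genes. The strongest control-only peaks were those of Plec, which encodes the cytolinker plectin (76055414 to 76055714 on chromosome 15, fold 3.97, log10 p -64.3), Ank3, which encodes ankyrin-G (fold 7.92, log10 p -35.2), and Vcl, which encodes vinculin (fold 2.25, log10 p -30.0). The peak of Vcl also overlapped an opposite-strand peak, from which it cannot be told apart. Flnc, which encodes filamin C, a muscle filamin that binds sarcoglycans, had 4 knockout and 6 control peaks. At its 5′-most pair the log10 p was -69.5 in the knockout list and -26.7 in the control list, and at its 3′-most pair it was -186 in the knockout list and -361 in the control list. The strongest knockout-only peak of Synm had a log10 p of -10.2, and that of Vcl had -5.10.

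Genes of different heart cells were looked at because the RNA came from whole hearts. All 10 cardiomyocyte markers had peaks in both lists. So did 7 of 8 fibroblast, 8 of 8 endothelial and 7 of 8 smooth muscle and pericyte markers, and 1 of each 8 in the fibroblast and smooth muscle sets had peaks in the knockout list only. Of 7 genes listed for skeletal muscle, Acta1 alone had a peak, in the knockout list, which does not show that skeletal muscle was present. Peaks were found for 1 of 5 neural and Schwann cell markers. Among strong knockout peaks 1 of 30 of the cardiomyocyte set had no counterpart, against 3 of 13 in the fibroblast, 3 of 12 in the endothelial and 1 of 18 in the smooth muscle and pericyte set, beside 4.04% over all genes. Among strong control peaks 11 of 40 of the cardiomyocyte set had none (27.5%, 14.6 to 43.9%), against 0 of 8 in the fibroblast, 0 of 6 in the endothelial and 0 of 15 in the smooth muscle and pericyte set, beside 8.72% over all genes. The 11 peaks lay in 3 of the 10 cardiomyocyte markers, 6 in Ttn, 4 in Ryr2 and 1 in Pln, and without Ttn the count was 5 of 31 (16.1%, 5.45 to 33.7%). These counts are set beside those of the muscle subunits and of the matrix ligands above, and Dcn stands in both the fibroblast and the ligand list. Their part in those results was not tested. The lists hold no transcript levels, and in bulk RNA fewer cells of a type and less RNA per cell cannot be told apart. Wtap itself had 4 peaks in the knockout list and 3 in the control list, which do not check the deletion.

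Genes with the same peak numbers as Dag1, 5 knockout peaks, 5 control peaks and 4 control peaks with a counterpart, were 24 in number. This rule had been written for Dmd and was turned to Dag1 after the values were seen. Nearest in the median fold of their control peaks (2.94 in Dag1) were Fnbp1 (2.93), Ppp1r12c (3.25), Sltm (3.68), Ntn1 (3.84) and Tut7 (3.99).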

How the data were processed

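Per the series' design text, 300 µg of pooled RNA in fragments of about 100 nt was incubated with the anti-m6A antibody for 2 h and sequenced with 150-base paired reads. With each genotype's input as control, the authors ran exomePeak 2.16.0 and kept peaks up to a q of 0.05, per the same text. Build GRCm39 and the tools HOMER 4.9.1, BWA 0.7.12 and fastp 0.19.11 are listed in the submitters' processing notes, with no step given for them. The deposited fold is a ratio of IP over input per peak. The deposited p-value is that of the authors' caller, and its log10 and the log10 q were read as a score, since the log10 q reaches minus infinity in 197 knockout and 203 control peaks. Neither list holds read counts, so depth is unknown and no correction for it was possible.

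Samples were grouped by genotype and antibody labels, since the knockout titles abbreviate the genotype differently. Overlaps used exonic blocks, with coordinates written 1-based. Work was done in Python 3.11.15 with numpy 2.4.6, pandas 2.3.3, scipy 1.17.1 and matplotlib 3.10.9. Shares have exact (Clopper-Pearson) 95% intervals. To check the code, 18312 control peaks were set against copies of themselves shifted by a few bases. The overlap step found 100% of copies kept on their chromosome and 0% of those moved to made-up chromosomes. That outcome was set by the construction, so it does not test the overlap rule between the lists. Members, lists and rules were chosen with earlier results of these data known. All 60 symbols of the 4 other gene lists matched a RefSeq table. Named from each list were up to 2 genes with the smallest p among knockout-only peaks, 3 among control-only peaks and 2 with most peaks. Alternatives were other q and fold thresholds, overlap rules, strand, whole spans, list size, merged peaks and other thresholds for strong peaks. The comparisons by position along the gene, peaks of like strength and counts without Dag1 or Ttn were added after the data were seen. Transcript regions, the m6A motif and peak sequences were not analysed here, for want of a GRCm39 genome. Values of some single genes in these lists are not given.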

Additional observations from a re-analysis of the deposited data

How the results depend on the processing

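Each genotype had 1 library pair, so leaving out replicates was not possible. No paired analysis was possible because each group held 1 sample and no test was run. At the main setting 6 of 6 knockout peaks and 5 of 8 control peaks of the complex had a counterpart, and no strong peak lacked one. These counts stayed the same with q at or under 0.01 and 0.001, with 50% overlap of the shorter peak, without strand, with whole spans, with 20766 peaks taken from either list and with merged peaks. With a fold of at least 2, 4 of 4 knockout and 3 of 7 control peaks had a counterpart, and 2 of 4 strong control peaks had none. With a fold of at least 4, 1 of 2 knockout and 1 of 3 control peaks had a counterpart. At that fold 1 of 2 strong knockout and 2 of 3 strong control peaks had none. With 50% overlap of both peaks, 2 of 6 knockout and 2 of 8 control peaks had a counterpart. At that rule 3 of 5 strong knockout and 2 of 4 strong control peaks had none, since the knockout and control peaks of Dag1 differ in width. With strong peaks at q at or under 1e-05, 2 of 7 strong control peaks had none, and at 1e-20 none of 4 did. Shares over all genes are not given at these other settings, so these counts have no background beside them. Without Dag1, 1 of 1 knockout and 1 of 3 control peaks had a counterpart, both of Sgcb. Most counts of the complex thus rest on the peaks of Dag1.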
